A study of Homo sapiens with 15 samples.

Results

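The unirradiated U251 cells of an irradiation series were described for what they express and what they lack. The members are the 3 control libraries among the 15 of the series, taken as the columns of the count table for unirradiated cells, and every level below comes from those 3 libraries alone. U251 is an established human glioblastoma line, labelled WT, which was grown in DMEM with 10% FBS. The other 4 groups received 1 Gy or 6 Gy of ionizing radiation (IR) and were collected after 6 h or 24 h, with 3 libraries each. The control is labelled 0 h, although the treatment notes place its harvest at 24 h past the irradiation of the other plates. Messenger RNA was enriched by its poly(A) tail from total RNA before sequencing, so transcripts without a tail were largely left out. The study calls its samples biological replicates, the labels do not say that the controls were separate cultures, and the SDs given here measure the spread between these 3 libraries.

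The 3 control libraries held 9429119, 10500021 and 11170801 counts over 22447 genes, for replicates 1, 2 and 3. They were close to each other, with a biological coefficient of variation of 5.84% and Pearson correlations of log2 CPM of 0.9949, 0.9936 and 0.9948 for the 3 pairs, across 11817 expressed genes that are not independent of each other. A gene is called expressed where it reached 1 CPM (a count scaled to 1000000 counts of the library, after TMM adjustment of its size) in each of the 3 libraries, and that was the case for 11817 genes (52.6%). A gene is called near zero where each library held at most 3 counts, which applied to 8365 genes (37.3%), of which 5625 (25.1% of all genes) had 0 counts in every library. A count of 0 over the 31099941 summed counts allows a level of up to 0.0965 CPM, for counting error only. The remaining 2265 genes lay between. The table includes 1615 rows of small RNAs and 392 olfactory receptors, 8 and 1 of which were expressed, and among the other 20440 rows the share expressed was 57.8%. A low level in every cell and a high level in a few cells cannot be told apart in these bulk libraries.

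Glioblastoma is a tumour of the glial lineage whose cells can take on astrocyte-like, progenitor-like or mesenchymal states, and whose growth is often driven by receptor tyrosine kinases and by loss of the RB and p53 checkpoints. Cells repair the double-strand breaks made by radiation mainly through end joining and homologous recombination, under the control of the kinases ATM, ATR and DNA-PK. The levels in unirradiated cells are the state from which any response to irradiation is measured.

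The 10 genes with the most counts were chosen by CPM, which is not corrected for length. ACTB, cytoplasmic beta-actin, had 11038, 11242 and 11998 CPM, and was followed in CPM by ENO1, PKM, FLNA, HSP90AB1, ACTG1, GAPDH, HSP90AA1, HSPA8 and EEF1A1. ENO1, the glycolytic enolase, had 5446, 5795 and 6488 CPM. PKM, pyruvate kinase, had 3912, 3845 and 4328 CPM. EEF1A1, the translation elongation factor at the end of these 10, had 2562, 2728 and 2836 CPM. Together the 10 genes took 4.40% of all counts. In all, 9368 genes averaged at least 10 CPM, 2563 at least 100 CPM and 67 at least 1000 CPM. The median CV between the 3 libraries was 6.85% over the expressed genes.

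Across 45 gene lists holding 1024 genes of the table, 627 (61.2%) were expressed. The lists differed widely around the 52.6% of all genes. Receptor lists, which also hold growth factor ligands and immune checkpoint genes, had 225 of 437 genes expressed (51.5%) and lineage lists 145 of 310 (46.8%). The receptor share was near the 52.6% of the whole table, and the lineage share lay under it. Both lay under the 57.8% of its rows without small RNAs and olfactory receptors. The counts of single lists below are to be read beside the 52.6%. Checkpoint lists had 99 of 108 (91.7%) and repair lists 165 of 182 (90.7%). In the checkpoint and repair lists the genes that did not pass the threshold were few.

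**Figure D1:**
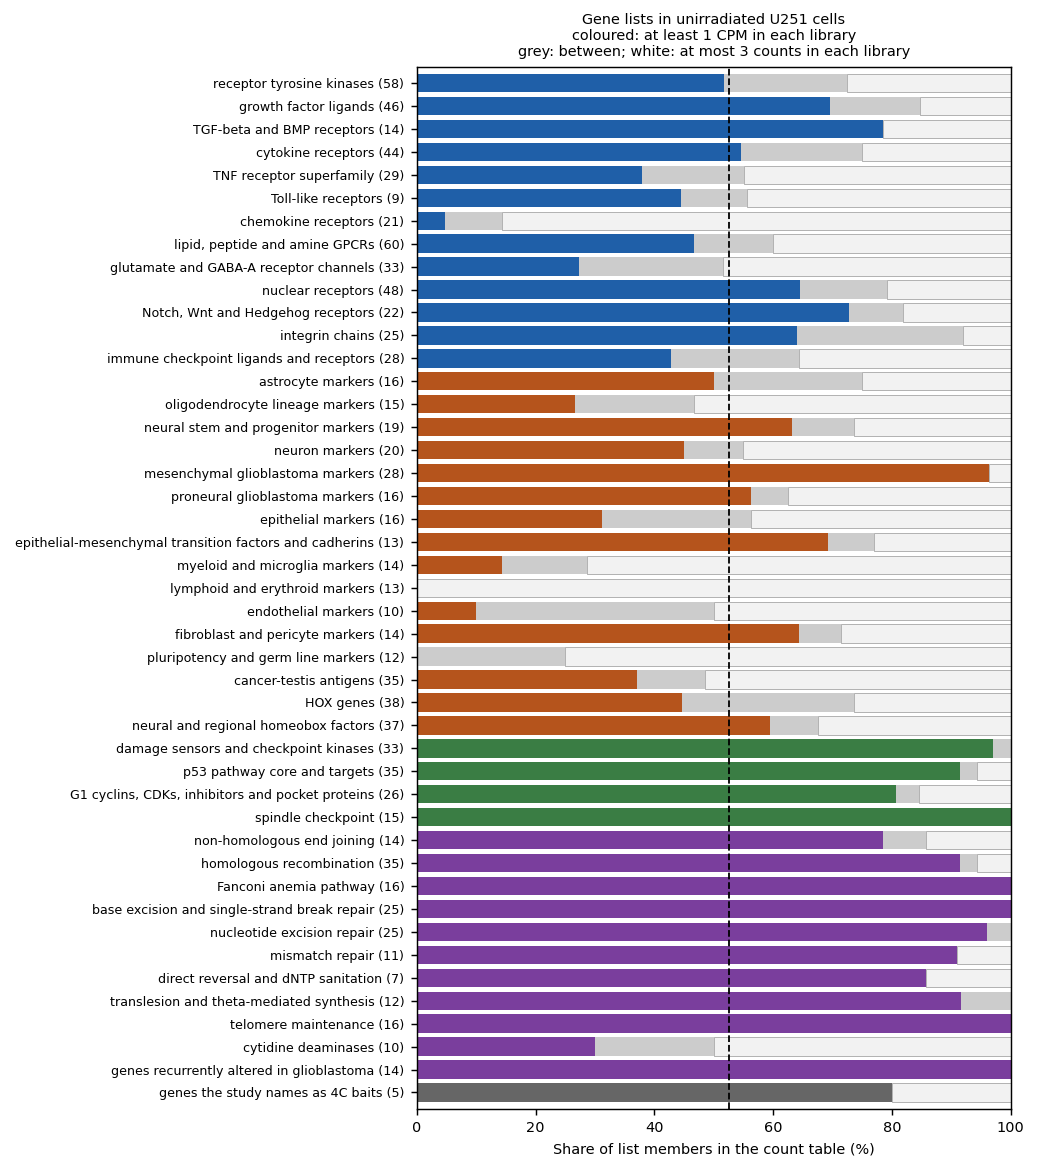
Share of the members of each gene list (%, horizontal axis, with the number of members in the table in parentheses) that were expressed (coloured: blue receptors, orange lineage, green checkpoint, purple repair, dark grey genes named by the study), between (light grey) or at no more than 3 counts in each library (white). The dashed line marks the 52.6% of all genes that were expressed. The spindle checkpoint, Fanconi anemia, base excision and telomere bars reach 100%, and the chemokine receptor bar stops at 4.76%.

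The sequence just before the gene start differed between expressed and near-zero genes, a feature that the choice of libraries did not use. In the 250 bases before the start given by the count table (GRCh37, gene strand), the median number of CpG dinucleotides was 19 in 11816 expressed genes (quartiles 12 and 27), 4 in 8365 near-zero genes (quartiles 2 and 11) and 13 over all 22446 genes with a window. At least 10 CpG were found before 81.8% of expressed and 28.5% of near-zero genes, and before 58.6% of all genes. The motif TATAAA, searched on both strands, was found before 5.35% of expressed and 15.8% of near-zero genes, and before 9.75% of all genes. These are shares over genes, which are not replicates, and a match is no evidence of a binding site. They also mix kinds of rows, since 1403 small RNAs and 375 olfactory receptors had 0 counts and 8 and 1 were expressed. The window of a small RNA can lie inside a host gene, as for MIR4473 in MLLT3. How far the kind of row accounts for the difference was not tested. Single genes departed from them in CpG number in both directions, namely AXL, MGMT, CDKN2A and CDKN2C among the following 5 windows. EPHA2, with 16 CpG, lay within the quartiles of expressed genes. Each CpG is in capitals, and all sequences are 5′ to 3′ from the GRCh37 genome. EPHA2 and AXL were the receptor tyrosine kinases with the highest levels, and their windows (chr1:16482583-16482832, minus strand, and chr19:41724854-41725103, plus strand) held 16 and 5 CpG. MGMT, CDKN2A and CDKN2C had 0 counts in every library, and yet their windows (chr10:131265204-131265453, plus strand; chr9:21994491-21994740, minus strand, before the outermost of its starts; and chr1:51434117-51434366, plus strand) held 37, 28 and 35 CpG. None of the 5 held TATAAA.
EPHA2: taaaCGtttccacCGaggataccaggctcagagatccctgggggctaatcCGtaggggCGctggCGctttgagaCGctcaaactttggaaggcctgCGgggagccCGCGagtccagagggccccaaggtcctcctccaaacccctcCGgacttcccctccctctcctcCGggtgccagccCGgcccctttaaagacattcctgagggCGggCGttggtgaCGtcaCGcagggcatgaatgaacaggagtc
AXL: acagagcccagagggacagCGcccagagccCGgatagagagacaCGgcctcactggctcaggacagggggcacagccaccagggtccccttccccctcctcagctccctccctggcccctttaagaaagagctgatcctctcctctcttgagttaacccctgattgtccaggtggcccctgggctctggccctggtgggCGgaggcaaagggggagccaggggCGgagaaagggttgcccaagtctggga
MGMT: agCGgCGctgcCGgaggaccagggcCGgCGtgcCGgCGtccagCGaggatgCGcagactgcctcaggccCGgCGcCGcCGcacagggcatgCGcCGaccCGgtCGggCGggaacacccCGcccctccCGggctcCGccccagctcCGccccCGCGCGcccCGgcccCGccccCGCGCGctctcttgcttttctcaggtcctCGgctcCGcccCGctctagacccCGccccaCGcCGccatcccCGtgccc
CDKN2A: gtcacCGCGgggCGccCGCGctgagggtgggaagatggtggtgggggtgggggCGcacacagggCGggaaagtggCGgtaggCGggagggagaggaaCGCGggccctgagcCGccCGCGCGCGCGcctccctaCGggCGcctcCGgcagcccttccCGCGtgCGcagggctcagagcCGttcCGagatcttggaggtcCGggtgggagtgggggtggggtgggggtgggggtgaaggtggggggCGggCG
CDKN2C: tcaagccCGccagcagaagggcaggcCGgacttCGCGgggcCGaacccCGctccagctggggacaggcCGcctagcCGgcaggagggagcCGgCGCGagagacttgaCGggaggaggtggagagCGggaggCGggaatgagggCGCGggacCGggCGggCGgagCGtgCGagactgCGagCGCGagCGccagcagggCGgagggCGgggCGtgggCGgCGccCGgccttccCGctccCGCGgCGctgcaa

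Of the 58 receptor tyrosine kinases in the table, 30 were expressed (51.7%), 16 were near zero and 9 of these had 0 counts throughout. The share expressed was near the 52.6% of all genes. EPHA2, an ephrin-A receptor, had 544, 557 and 566 CPM in replicates 1, 2 and 3. AXL, a receptor for GAS6, had 454, 485 and 461 CPM. MET, the receptor for hepatocyte growth factor, had 392, 396 and 332 CPM. EGFR, the receptor most often amplified in glioblastoma, had 124, 124 and 105 CPM. The 3 libraries lay close together for each of these genes, with means of 556 ± 11.2 CPM, 467 ± 16.1 CPM, 373 ± 35.6 CPM and 118 ± 11.2 CPM in that order (SD, n = 3 here and below). To order receptors, counts were divided by transcript length and scaled to the same total of 1000000 in each library (TPM). On that scale EPHA2 (338 ± 6.54 TPM) lay above AXL (237 ± 11.6 TPM), which lay above MET (131 ± 16.9 TPM), and the 3 values of each did not overlap those of the next. MET and the collagen receptor DDR1 (131 ± 9.75 TPM) overlapped. EGFR stood at 28.5 ± 3.69 TPM, and FGFR1, a fibroblast growth factor receptor, at 38.3 ± 1.16 TPM.

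The levels of the other receptor tyrosine kinases ran down to 0. PDGFRA, the platelet-derived growth factor receptor of the oligodendrocyte progenitor, had 1.15, 1.33 and 2.63 CPM, while PDGFRB, its mesenchymal relative, had 11.4, 11.2 and 9.78 CPM. ERBB2 averaged 33.2 ± 0.570 CPM and ERBB3 2.78 ± 0.634 CPM. IGF1R, the insulin-like growth factor receptor, averaged 105 ± 9.81 CPM. The vascular receptor KDR, at 1.05, 1.14 and 0.906 CPM, crossed the 1 CPM threshold in replicates 1 and 2 and not in replicate 3, and TEK, the angiopoietin receptor of endothelium, was under it at 0.628, 0.191 and 0.272 CPM. KIT, the stem cell factor receptor, ALK, EPHA7, EPHA8 and EPHB6 had 0 counts in all 3 libraries, as did FLT3, INSRR, MUSK and ROR2, the last 4 named here because they complete the 9.

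**Figure D2:**
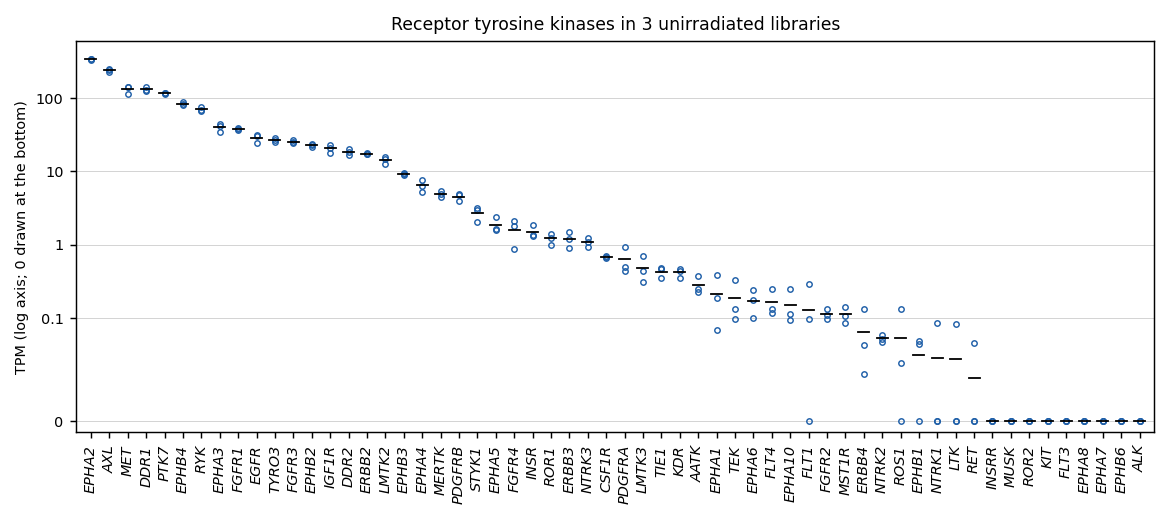
TPM (vertical log axis, with 0 drawn at the bottom) of the 58 receptor tyrosine kinases, ordered by mean. Circles are the 3 unirradiated libraries and bars their means. EPHA2 stands at 338 TPM, AXL at 237 and EGFR at 28.5, and the last 9 genes lie at 0.

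Of 46 growth factor ligands 32 were expressed (69.6%). EFNB2, a membrane-bound ephrin, had 459, 452 and 415 CPM. GAS6, the ligand of AXL, had 227, 239 and 269 CPM. CSF1, the growth factor of macrophages and microglia, had 137, 139 and 147 CPM. TGFA, a ligand of EGFR, had 139.7, 141 and 123 CPM and HBEGF, another, averaged 45.4 ± 2.06 CPM. The messages of ligand and receptor were thus both present for AXL and for EGFR. HGF, the ligand of MET, averaged 14.3 ± 1.21 CPM, and VEGFA, the main angiogenic factor, 59.5 ± 2.01 CPM. AREG, FGF9, NRG3 and NTF3 had 0 counts in every library. IGF2 had 0, 1 and 0 counts. AREG has a near-identical copy in the hg19 genome and NRG3 overlaps an antisense gene, so their zeros are uncertain.

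Receptors for the TGF-beta family were largely present, with 11 of 14 expressed. TGFBR2, the ligand-binding receptor, had 96.9, 95.9 and 87.0 CPM. TGFBR1, which signals to SMADs, averaged 53.4 ± 5.42 CPM. BMPR1A averaged 68.4 ± 5.97 CPM and ENG, the coreceptor endoglin, 68.4 ± 2.64 CPM. ACVRL1, ACVR1C and AMHR2 were near zero. Of 22 receptors of the Notch, Wnt and Hedgehog pathways, 16 were expressed. The Wnt receptor FZD6 had 217, 219 and 192 CPM, NOTCH2 had 118, 107 and 105 CPM and NOTCH1 averaged 76.6 ± 1.54 CPM. NOTCH3, in contrast, had 2, 2 and 1 counts. SMO, the Hedgehog transducer, averaged 33.9 ± 1.32 CPM and PTCH1, the Hedgehog receptor, 6.78 ± 0.477 CPM.

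Among cytokine receptors, 24 of 44 were expressed (54.5%), a share near the 52.6% of all genes. In CPM the expressed genes included chains of the interleukin-6 family. IL6ST, the shared signal transducer gp130, had 299, 312 and 245 CPM. OSMR, the oncostatin M receptor, had 112, 108 and 90.9 CPM. LIFR averaged 65.1 ± 7.92 CPM. IL6R, which binds interleukin 6 itself, averaged 9.35 ± 0.741 CPM. IL13RA2, a decoy receptor known as a glioblastoma antigen, had 51.5, 51.3 and 52.6 CPM and, at 92.9 ± 2.48 TPM, was the highest of the list per length, above IL6ST at 76.0 ± 11.8 TPM with no overlap. The interferon receptors IFNAR1 and IFNGR1 averaged 92.9 ± 2.42 CPM and 36.9 ± 2.04 CPM. Receptors known mainly from blood cells were divided. CSF2RB, IL10RA and IL18R1 had 0 counts, while IL27RA, IL7R and EPOR, the erythropoietin receptor, averaged 28.8 ± 2.30 CPM, 21.2 ± 1.28 CPM and 13.3 ± 1.5 CPM. The 21 chemokine receptors were close to absent as a list, with 1 expressed (4.76%) and 13 at 0 counts. The 1 expressed was ACKR3, an atypical receptor for CXCL12, at 4.29, 5.15 and 4.71 CPM, whereas CXCR4, the signalling receptor for the same ligand, had 0 counts in all 3 libraries.

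The TNF receptor superfamily, which includes the death receptors, was uneven. Of its 29 members, 11 were expressed (37.9%), against 52.6% of all genes, and 13 were near zero. TNFRSF12A, the TWEAK receptor, had 248, 239.9 and 244 CPM and TNFRSF1A, the main TNF receptor, had 170.1, 162 and 186 CPM. Of the receptors for TRAIL that carry a death domain, TNFRSF10B had 144, 139 and 138 CPM and TNFRSF10A 0, 2 and 0 counts. FAS averaged 21.5 ± 1.68 CPM and CD40 was near zero, with 0, 2 and 0 counts. The values of both TRAIL receptors lay far apart in every library. Of 9 Toll-like receptors, 4 were expressed, led by TLR4, the lipopolysaccharide receptor, at 120.1, 119.9 and 99.3 CPM. TLR3, the receptor for double-stranded RNA, had 3.04, 2.0 and 2.26 CPM, TLR2 had 1, 0 and 0 counts, and TLR5 and TLR8 had 0 counts.

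Receptors for lipids, peptides and amines, which couple to G proteins, were expressed in 28 of 60 cases (46.7%), against 52.6% of all genes. HTR7, a serotonin receptor, had 101, 108 and 104 CPM. DRD2, a dopamine receptor, had 80.2, 73.3 and 75.8 CPM. The TPM of HTR7 and DRD2 overlapped (72.2 ± 3.20 TPM and 65.3 ± 4.76 TPM). F2R, the thrombin receptor, had 77.7, 78.8 and 73.6 CPM. The adrenoceptor ADRA1D averaged 40.4 ± 1.0 CPM and the sphingosine-1-phosphate receptor S1PR1 27.2 ± 2.67 CPM. AGTR1, CHRM2, DRD1, EDNRA and LPAR1 had 0 counts, while EDNRB, the other endothelin receptor, averaged 10.0 ± 0.849 CPM. HCRTR2, an orexin receptor whose gene the study used as a viewpoint in its chromosome contact assay, had 1, 2 and 1 counts. Ion channels gated by glutamate or GABA were expressed in 9 of 33 cases, with 16 at or under 3 counts in each library and none above the 27.4 ± 4.31 CPM of GABRE. GRIA4 averaged 9.21 ± 0.608 CPM and the obligatory NMDA receptor subunit GRIN1 3.01 ± 0.408 CPM, whereas GRIA2, GABRB2 and GABRG1 had 0 counts.

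Nuclear receptors were expressed in 31 of 48 cases. NR3C1, the glucocorticoid receptor, had 159, 165 and 146 CPM. RXRA, the shared retinoid partner, had 126, 120.1 and 121 CPM. NR2F1, an orphan receptor of neural development, had 118, 111 and 103 CPM. ESR1, the oestrogen receptor, averaged 4.34 ± 0.660 CPM. PGR, the progesterone receptor, NR0B1 and RXRG had 0 counts. PPARG had 2, 3 and 4 counts.

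Adhesion receptors included the gene with the highest level per length among the receptor and ligand lists, ITGA3. Of 25 integrin chains, 16 were expressed. ITGA3, a laminin-binding chain, had 1414, 1401 and 1433 CPM, and per length (695 ± 21.6 TPM) it lay above its partner ITGB1 (311 ± 20.6 TPM), with no overlap. ITGAV averaged 278 ± 41.2 CPM, ITGB4 237 ± 5.58 CPM and ITGA5, the fibronectin receptor chain, 54.5 ± 0.873 CPM. Of the chains known from leukocytes, ITGAM, ITGAD and ITGB7 averaged 0.357, 0.0667 and 0.187 CPM, while ITGA4, ITGAE and ITGB2 passed the threshold at 30.7 ± 6.30 CPM, 26.9 ± 4.46 CPM and 1.13 ± 0.0680 CPM. Among genes of immune checkpoints, 12 of 28 were expressed, and they were ligands and enzymes of the target cell. NT5E, the ectoenzyme CD73, had 182, 183 and 174 CPM. CD70, the ligand of CD27, had 128, 125 and 149 CPM. CD47, the signal that restrains phagocytosis, had 99.2, 102 and 95.5 CPM. CD274, which encodes PD-L1, had 26.0, 25.6 and 18.9 CPM and its relative PDCD1LG2 averaged 5.96 ± 1.29 CPM. The lymphocyte receptors CTLA4 and BTLA and the costimulator CD80 had 0 counts.

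Among 16 astrocyte markers, 8 were expressed (50.0%), a share near the 52.6% of all genes. GFAP, the intermediate filament that defines astrocytes, had 3.45, 3.91 and 3.53 CPM. S100B had 1.68, 1.62 and 1.54 CPM. AQP4, the water channel of astrocyte endfeet, had 0 counts, as did GJB6 and SLC4A4, and AQP4 overlaps an antisense gene in the table. GJA1, the gap junction protein connexin 43, had 73.3, 78.1 and 68.4 CPM. SOX9, a transcription factor of glial specification, had 83.0, 79.8 and 76.2 CPM. NFIB, another, had 154, 170.2 and 168 CPM. The glutamate transporters SLC1A3 and SLC1A2 averaged 4.46 ± 0.408 CPM and 0.931 ± 0.108 CPM. Of the markers of the labelled glial origin, SOX9, NFIB and GJA1 were thus well above the threshold, and GFAP, the defining filament, was low in every library.

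Oligodendrocyte lineage markers were expressed in 4 of 15 cases. OLIG1, OLIG2 and GPR17 had 0 counts in all 3 libraries. SOX10, which overlaps POLR2F on the other strand, had 1, 0 and 0 counts. CNP, an enzyme of myelin that is also made by other cells, had 164, 162 and 165 CPM. CSPG4, the NG2 proteoglycan, had 1.47, 1.24 and 1.27 CPM. Of 19 progenitor markers 12 were expressed (63.2%), a share near the 52.6% of all genes. NES, the intermediate filament nestin, had 329.9, 322 and 290.3 CPM. SOX2, the stem cell transcription factor, had 269, 236 and 252 CPM. Per length SOX2 (241 ± 20.9 TPM) lay above NES (136 ± 14.0 TPM) without overlap. POU3F2, a neural progenitor factor, had 95.3, 94.7 and 84.9 CPM and PAX6 averaged 15.6 ± 1.30 CPM. SOX1, a neural progenitor factor, had 0 counts. PROM1, which encodes the stem cell marker CD133, had 0, 0 and 2 counts.

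Markers of the proneural glioblastoma state were expressed in 9 of 16 cases (56.25%), a share near the 52.6% of all genes. GPM6A, a neuronal membrane glycoprotein, averaged 141 ± 2.93 CPM, TCF4 82.2 ± 2.85 CPM, SOX4 58.2 ± 3.34 CPM and the Notch ligand DLL1 33.6 ± 1.30 CPM, while SOX11 and DCX had 0 counts and DLL3 had 0, 3 and 2 counts. Mesenchymal markers were nearly complete, with 27 of 28 expressed (96.4%) and a median of 155 CPM, against a median of 38.2 CPM over all expressed genes. ANXA2, an annexin of the membrane cytoskeleton, had 2235, 2326 and 2589.7 CPM. CD44, the hyaluronan receptor, had 1873, 1822 and 1745 CPM. VIM, the filament vimentin, had 1468, 1526 and 1629 CPM. THBS1, a matrix glycoprotein, had 1521, 1651 and 1448 CPM. The exception was CHI3L1, a secreted glycoprotein often used to mark the mesenchymal state, at 2, 2 and 0 counts.

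Of 13 cadherins and transition factors 9 were expressed. CDH2, N-cadherin, had 200.0, 217 and 198 CPM. CDH1, E-cadherin, had 2, 1 and 2 counts. ZEB1, ZEB2, TWIST1 and SNAI2, repressors of epithelial genes, averaged 26.0 ± 2.28 CPM, 37.5 ± 4.57 CPM, 17.7 ± 3.0 CPM and 10.6 ± 0.299 CPM, while SNAI1 had 2, 0 and 0 counts and TWIST2 had 0 counts. Of 16 epithelial markers 5 were expressed. EPCAM, CLDN3, OVOL1 and RAB25 had 0 counts, and the simple keratin KRT18 had 73.0, 83.0 and 84.4 CPM. KRT8, its partner, had 57.4, 56.2 and 63.6 CPM. Of 14 fibroblast and pericyte markers 9 were expressed, led by COL1A2, a chain of collagen I, at 426, 445 and 463 CPM, and THY1 at 137, 124 and 133 CPM. COL1A1, the other chain, averaged 22.5 ± 2.07 CPM. COL3A1 had 1, 0 and 3 counts and LUM, a matrix proteoglycan, 0 counts.

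**Figure D3:**
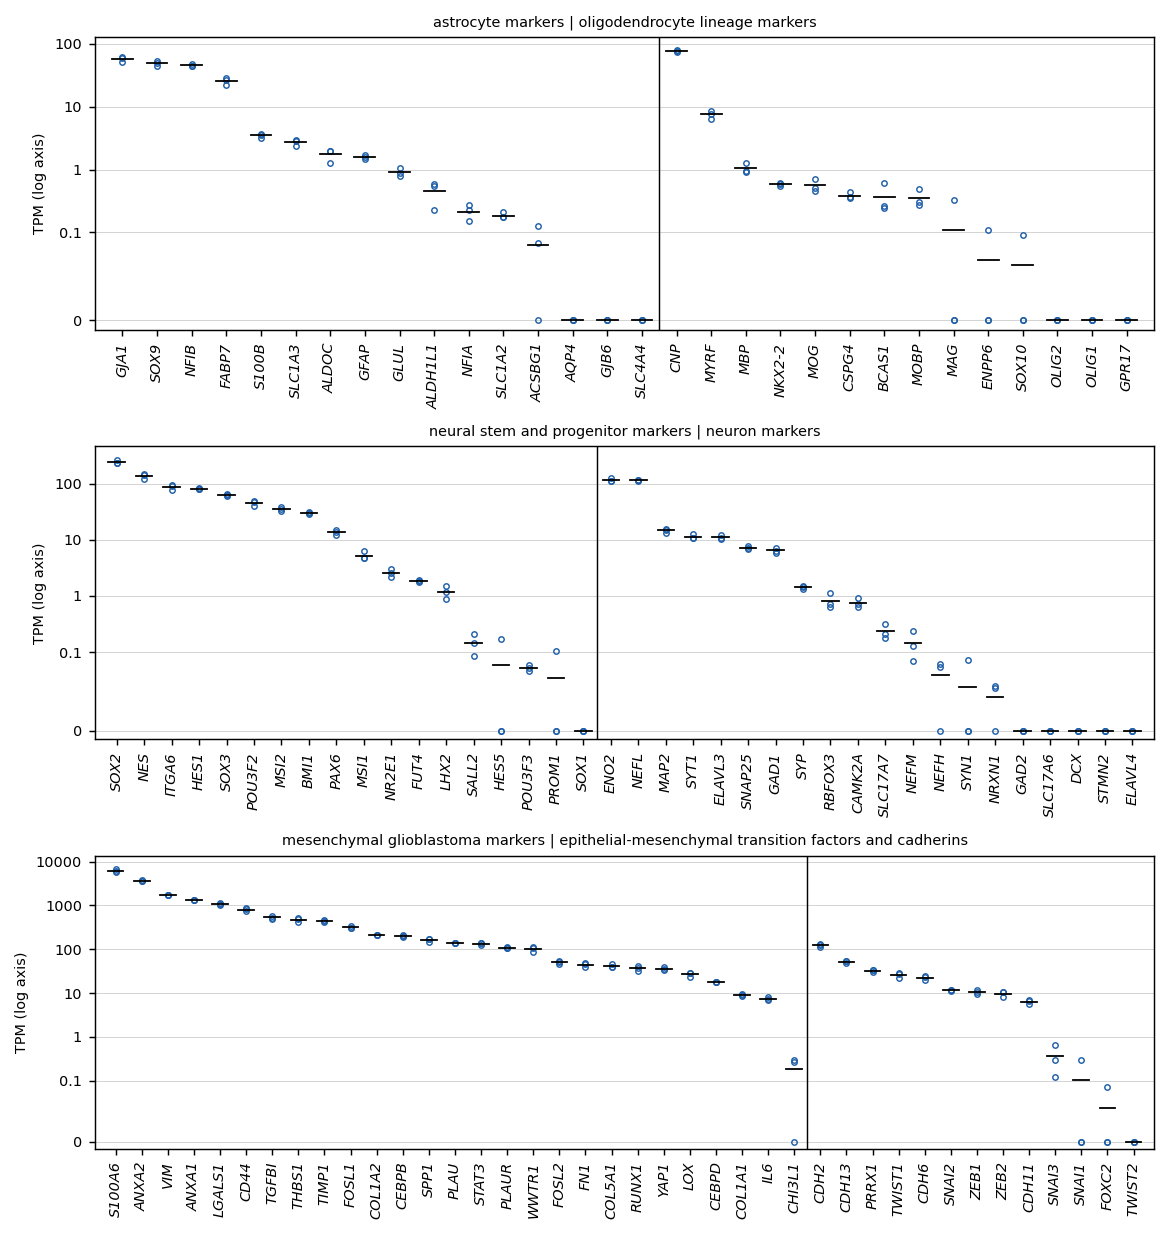
TPM (vertical log axes, with 0 at the bottom) of lineage markers, each list ordered by mean, with a vertical line between the lists of a panel and without the members not reported here. Circles are the 3 unirradiated libraries and bars their means. Mesenchymal markers reach from 6247 TPM for S100A6 and 3672 TPM for ANXA2 down to 0.187 TPM for CHI3L1, SOX2 stands at 241 TPM and GFAP at 1.58 TPM.

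Of 20 neuron markers 9 were expressed (45.0%), against 52.6% of all genes. NEFL, the light neurofilament, had 165, 171 and 171 CPM. ENO2, the neuronal enolase, had 102, 118 and 111 CPM. MAP2, a dendritic microtubule protein, had 61.6, 58.5 and 56.0 CPM. DCX, a marker of migrating neurons, ELAVL4, GAD2 and SLC17A6 had 0 counts. Markers of blood and vessel cells were mostly at or near zero. Of 14 myeloid markers, TMEM119 at 1.57, 1.14 and 1.27 CPM and CSF1R at 1.05, 1.05 and 1.18 CPM were expressed. CD14 had 0.628, 1.24 and 1.54 CPM, AIF1 had 0, 0 and 1 counts and C1QA, C1QB, CD68 and CX3CR1 had 0 counts. The myeloid list summed to 4.20 CPM. None of 13 lymphoid and erythroid markers was expressed, all were near zero, 8 were at 0 counts, and the list summed to 0.292 CPM. Of 10 endothelial markers 1 was expressed, the endothelial cadherin CDH5, at 6.60, 5.82 and 4.98 CPM, and PECAM1 and PLVAP had 0 counts. None of 12 pluripotency and germ line markers was expressed. POU5F1, which has close copies elsewhere in the genome, had 1.05, 0.954 and 1.45 CPM, under the threshold only in replicate 2. NANOG had 2, 3 and 1 counts.

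Of 35 genes listed as cancer-testis antigens, many of which are normally confined to the germ line, 13 were expressed. These include MAGED1 and MAGED2, relatives that many normal tissues also express, at 203 ± 13.4 CPM and 85.0 ± 2.89 CPM. MAGEA12, a melanoma antigen on the X chromosome, had 130.1, 135 and 145 CPM. MAGEA3 had 132, 131 and 138 CPM and MAGEA6 had 109.6, 103 and 116 CPM. These 3 are near-identical in sequence, and reads may be split between them. PRAME, another antigen, had 9.53, 8.39 and 10.7 CPM. MAGEA4, CTAG1B, CT45A1, CT47A1 and GAGE12J had 0 counts, the last 4 of which overlap or have copies in the table. Of 38 HOX genes, which pattern the trunk and are off in most normal brain tissue, 17 were expressed (44.7%), against 52.6% of all genes. They were led in CPM by HOXC10 at 31.1, 26.0 and 29.3 CPM and HOXB7 at 26.6, 22.9 and 30.1 CPM. HOXA9, HOXA10, HOXB1 and HOXC12 had 0 counts. Of 37 other regional factors, 22 were expressed (59.5%). PITX1, a hindlimb and pituitary factor, had 73.5, 69.5 and 75.6 CPM. ZIC2 averaged 42.7 ± 1.67 CPM. OTX2, EMX2, PAX7 and LMX1A had 0 counts.

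The checkpoint genes were almost all expressed in the unirradiated cells. Of 33 damage sensors and checkpoint kinases 32 were expressed (97.0%), and the other was HUS1B at 7, 7 and 5 counts. ATM, the kinase that answers double-strand breaks, had 56.6, 54.9 and 47.2 CPM. ATR, which answers stalled replication, had 67.9, 62.1 and 51.4 CPM. CHEK2, the effector kinase of ATM, had 11.6, 12.9 and 10.1 CPM. CHEK1, the effector kinase of ATR, had 71.6, 67.5 and 65.0 CPM. The 3 values of CHEK2 lay under those of CHEK1 also per length (15 ± 2.22 TPM and 39.6 ± 3.38 TPM). H2AFX, the histone variant that is phosphorylated at breaks, had 312, 301 and 319 CPM. CDC25B, a phosphatase that drives mitotic entry, had 434, 415 and 462 CPM. PLK1, a kinase that does so, had 298, 303 and 343 CPM. WEE1, which restrains mitotic entry, averaged 82.0 ± 1.99 CPM. All 15 spindle checkpoint genes were expressed, led by CDC20, an activator of the anaphase-promoting complex, at 432, 434 and 506 CPM, with BUB1B averaging 126 ± 10.5 CPM and MAD2L1 110.2 ± 9.77 CPM.

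Of 35 genes of the p53 pathway 32 were expressed (91.4%). TP73, a member of the p53 family, had 179, 169 and 180.1 CPM. MDM2, the ligase that degrades p53, had 89.4, 86.5 and 87.5 CPM. MDM4 averaged 36.9 ± 5.21 CPM. CDKN1A, the p21 inhibitor, had 82.2, 81.9 and 76.4 CPM. GADD45A averaged 79.0 ± 4.70 CPM. SFN, 14-3-3 sigma, had 15.5, 14.1 and 14.9 CPM. BTG2, an antiproliferative gene that the study used as a viewpoint, had 3.87, 5.15 and 4.80 CPM. BBC3, a mediator of apoptosis, averaged 3.41 ± 0.564 CPM. PERP and SPATA18 were near zero, with 1, 1 and 3 counts and 0, 1 and 2 counts, and TNFRSF10C lay between at 0.678 ± 0.0502 CPM.

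Within the checkpoint lists, the genes with 0 counts in every library were all G1 genes. Of 26 cyclins, kinases, inhibitors and pocket proteins 21 were expressed (80.8%), and CDKN1C lay between (this gene was named after its values were seen). The other 4 had 0 counts in all 3 libraries, as did 25.1% of all genes. These 4 were CDKN2A, CDKN2B and CDKN2C, which encode the p16, p15 and p18 inhibitors of CDK4 and CDK6 (CDKN2A also encodes the MDM2 inhibitor ARF), and CCND2, a D-type cyclin. The kinases they inhibit and 2 D-type cyclins were expressed. CCND1, a D-type cyclin that CDK4 binds, had 438, 452 and 407 CPM. CCND3 had 230.4, 219.8 and 247 CPM. CDK4, the kinase, had 162, 165 and 171 CPM. CDK6, its relative, had 122, 124 and 104 CPM. Per length CCND3 (275 ± 11.2 TPM) lay above CCND1 (245 ± 20.8 TPM), and CCND1 above CDK4 (213 ± 2.45 TPM), without overlap. RB1, the pocket protein they phosphorylate, had 164, 162 and 137 CPM. CDKN2D, the p19 member of the same inhibitor family, averaged 21.2 ± 1.80 CPM and was chosen after its values were seen.

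The neighbours of the inhibitors with 0 counts were read in chromosome order. Between 20 and 25 Mb of chromosome 9 (hg19) the table holds 32 genes, of which 6 were expressed. CDKN2A (chr9:21967751-21994490) and CDKN2B (chr9:22002902-22009312) lie next to MTAP (chr9:21802635-21865969), a methionine salvage enzyme, which had 128, 120.4 and 122 CPM. CDKN2B-AS1, an antisense RNA that overlaps CDKN2B, had 7, 4 and 7 counts, and the sources do not state whether strand was used in counting, so the 0 of CDKN2B could include reads left out as ambiguous. CDKN2A does not overlap another row of the table. On the far side DMRTA1 had 5.86, 6.48 and 6.43 CPM and ELAVL2, a neuronal RNA-binding protein, 23.5, 20.1 and 22.5 CPM. KLHL9, FOCAD and MLLT3 averaged 57.2 ± 8.56 CPM, 61.0 ± 1.87 CPM and 23.8 ± 1.32 CPM. The 16 interferon genes of the region with 0 counts lie among these genes. Expressed genes thus lay on each side of CDKN2A and CDKN2B.

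Around CDKN2C on chromosome 1 the pattern differed (these neighbours were chosen after their values were seen). FAF1 (chr1:50906935-51425936), a ubiquitin-binding factor whose gene spans 519 kb, had 0 counts in all 3 libraries, as did CDKN2C (chr1:51434367-51440306), which starts 8.43 kb after it, and C1orf185 and MIR4421 beyond. RNF11, which starts 262 kb after the end of CDKN2C, had 133, 134 and 128 CPM. EPS15 averaged 61.8 ± 1.46 CPM. On the other side the nearest expressed gene was SPATA6, at 5.03, 8.01 and 5.71 CPM, whose end lies 1969 kb before FAF1, and AGBL4, BEND5, ELAVL4 and DMRTA2 between them averaged 0.126, 0.912, 0 and 0.0302 CPM. Neither FAF1 nor CDKN2C overlaps another row. The state of the DNA at either place was not measured.

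**Figure D4:**
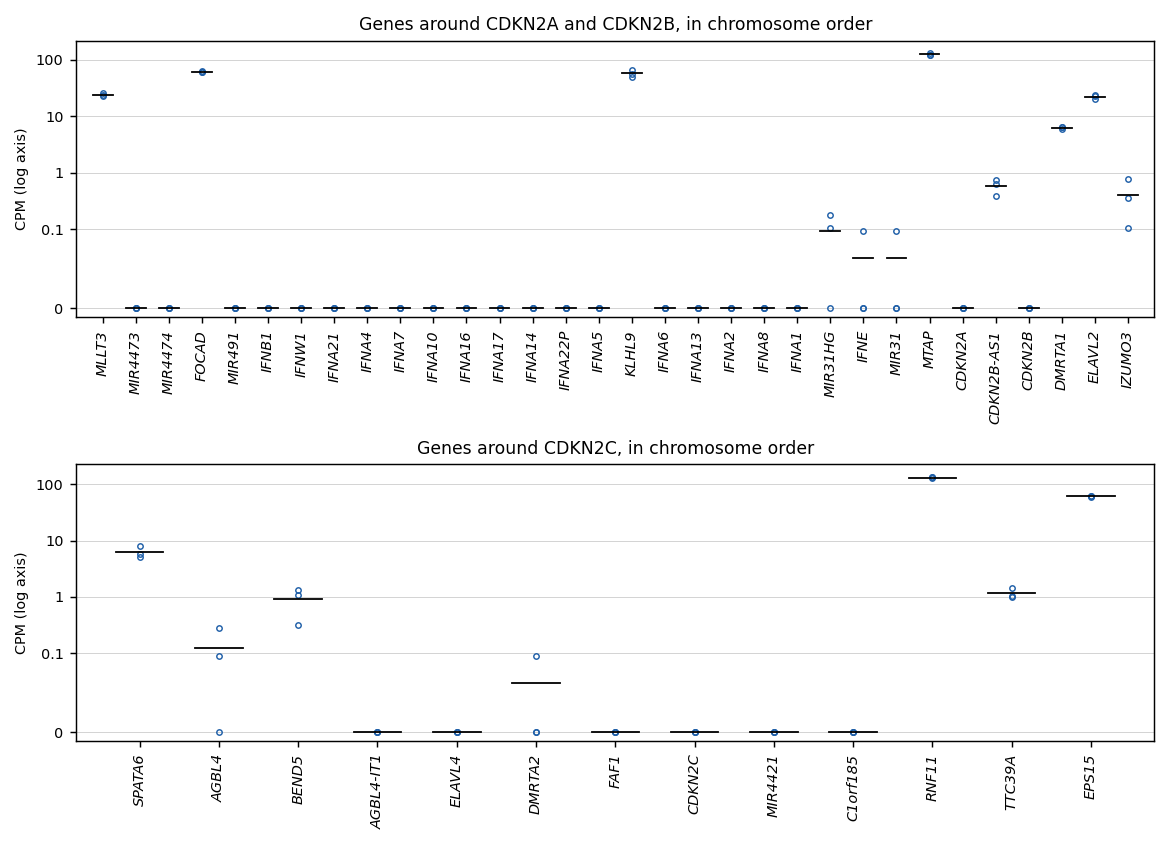
CPM (vertical log axes, with 0 at the bottom) of the genes around CDKN2A and CDKN2B (upper panel) and around CDKN2C (lower panel), in chromosome order from left to right. Circles are the 3 unirradiated libraries and bars their means. MTAP at 123 CPM stands beside CDKN2A at 0, while FAF1 and CDKN2C lie together at 0, with RNF11 at 131 CPM to the right.

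Repair genes were mostly present too. For non-homologous end joining 11 of 14 genes were expressed. XRCC6, which encodes the Ku70 protein that binds broken ends, had 654, 685 and 752 CPM. XRCC5, which encodes its partner Ku80, had 636, 641 and 631 CPM. PRKDC, the catalytic subunit of DNA-PK, had 506, 493 and 459 CPM. Per length XRCC6 (786 ± 25.9 TPM) lay above XRCC5 (452 ± 19.5 TPM), without overlap. LIG4 and XRCC4, which seal the break together, averaged 36.4 ± 4.24 CPM and 25.2 ± 1.78 CPM. NHEJ1, which encodes their partner XLF, had 3, 1 and 3 counts, APLF had 1, 1 and 5 counts, and DNTT, the polymerase of lymphocytes, had 0 counts. The values of NHEJ1 were far under those of its partners in every library, and its row overlaps no other.

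For homologous recombination 32 of 35 genes were expressed. RBBP8, which encodes CtIP and starts end resection, had 167, 176 and 166 CPM. BRCA1, its binding partner, had 111, 127 and 111 CPM. BRCA2 averaged 22.1 ± 4.06 CPM. RAD52 averaged 7.50 ± 0.701 CPM and RAD51B 3.71 ± 0.469 CPM. The meiotic recombinase DMC1 had 2, 4 and 4 counts, and SLX1A and SLX1B, nuclease genes that are near-identical copies, held 0 and 1 counts in all, which could not be assigned to either with certainty. All 16 Fanconi anemia genes were expressed, in CPM from 221 ± 15.2 CPM for USP1 and 216 ± 3.92 CPM for FANCI to 9.22 ± 0.844 CPM for FANCB. FANCD2, which is ubiquitinated at crosslinks, had 80.2, 79.8 and 81.3 CPM.

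All 25 genes of base excision and single-strand break repair were expressed. PARP1, the sensor of strand breaks, had 451, 472 and 473 CPM, and FEN1, APEX1 and XRCC1 averaged 179 ± 9.92 CPM, 129 ± 5.57 CPM and 87.8 ± 3.56 CPM. The lowest was the glycosylase NEIL1 at 3.05 ± 0.108 CPM. Of 25 nucleotide excision genes 24 were expressed, among them RPA1, a subunit of the single-strand binding protein, at 380.1, 405 and 402 CPM. The exception was GTF2H4, a subunit of the repair helicase complex TFIIH, which lay between at 9, 1 and 6 counts. Whether reads of GTF2H4 were lost in alignment or counting was not tested, so its low level is uncertain. Of 11 mismatch repair genes 10 were expressed, with MSH6, a mismatch-binding subunit, averaging 137 ± 8.28 CPM, while the meiotic gene MSH4 had 0 counts. Of 12 genes of translesion and theta-mediated synthesis 11 were expressed, with POLQ, the theta polymerase, at 43.3, 44.1 and 33.8 CPM and POLH averaging 45.2 ± 1.39 CPM.

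MGMT, which removes the methyl groups that temozolomide adds to guanine, had 0 counts in each of the 3 libraries, and its level was therefore at most 0.0965 CPM. Its row (chr10:131265454-131565783) overlaps no other. The nearest expressed genes were MKI67, the proliferation marker, at 666, 611 and 567 CPM and GLRX3 at 145, 146 and 155 CPM, which lie 1341 kb to its left and 369 kb to its right (both were chosen by their position). The other 6 genes of direct reversal and nucleotide sanitation were expressed, including the demethylases ALKBH2 and ALKBH3 at 33.0 ± 2.36 CPM and 46.0 ± 3.68 CPM. Of 10 cytidine deaminases 3 were expressed and 5 had at most 3 counts in each library. APOBEC3C had 109, 108 and 119 CPM, APOBEC3G averaged 15 ± 0.884 CPM and APOBEC3F 8.33 ± 1.52 CPM, while APOBEC3B had 1, 1 and 1 counts. The APOBEC3 genes are close relatives and some of their reads may be shared.

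**Figure D5:**
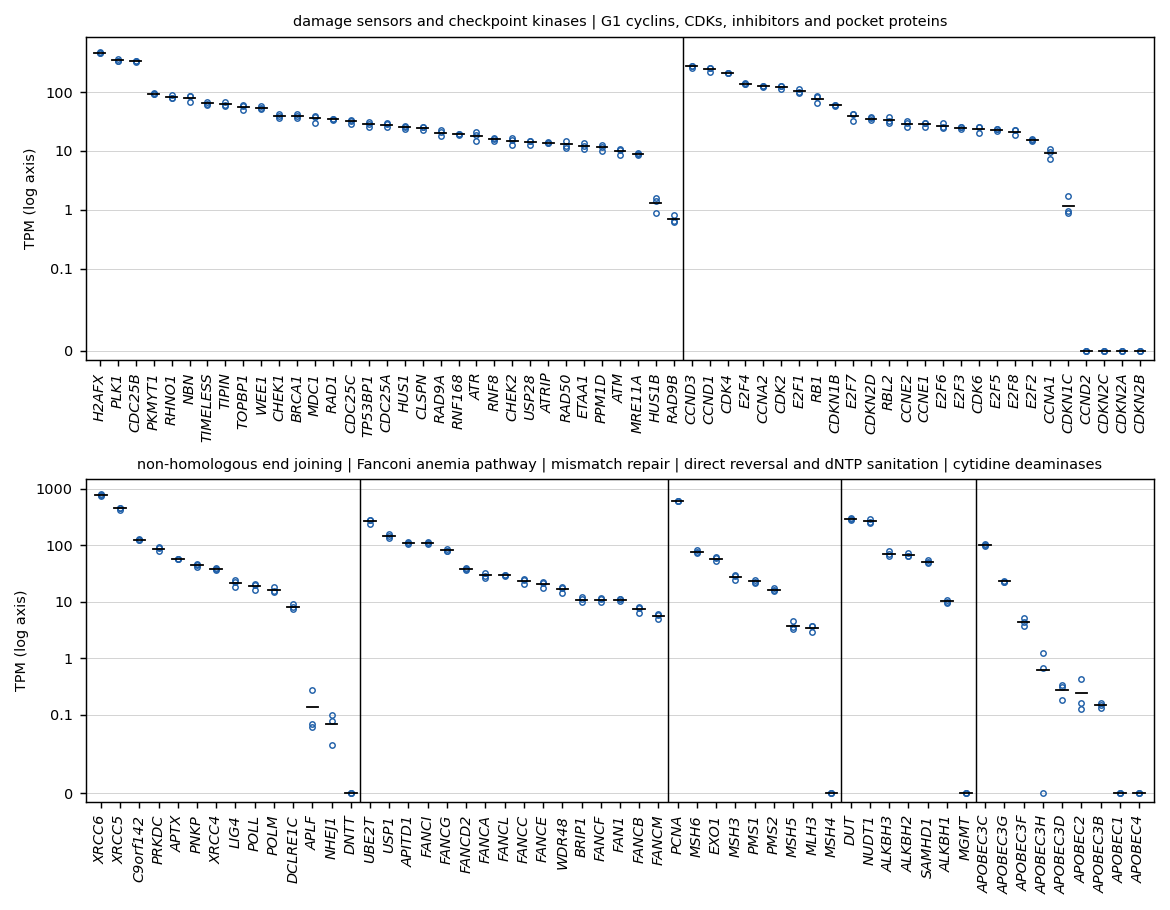
TPM (vertical log axes, with 0 at the bottom) of checkpoint genes (upper panel) and of repair genes (lower panel), each list ordered by mean and separated by vertical lines, without the members not reported here. Circles are the 3 unirradiated libraries and bars their means. CDKN2A, CDKN2B, CDKN2C and CCND2 lie at 0 beside CCND3 at 275 TPM, and MGMT lies at 0 beside DUT at 298 TPM.

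All 16 telomere genes were expressed. DKC1, the dyskerin that stabilizes telomerase RNA, had 361, 390.2 and 394 CPM. ATRX, a chromatin remodeller often lost in glioma, had 84.5, 101 and 100.1 CPM. DAXX averaged 102 ± 8.21 CPM. TERT, the telomerase catalytic subunit, was low at 2.30, 2.57 and 1.90 CPM yet past the threshold in every library. All 14 genes that are recurrently altered in glioblastoma, leaving aside those listed under receptors and checkpoints, were expressed. NF1, the RAS inhibitor, had 25.3, 22.5 and 18.2 CPM. IDH1 averaged 54.6 ± 1.16 CPM. Counts do not show whether the transcripts of these genes carry mutations.

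The study used 5 genes as viewpoints for chromosome contacts, and their levels in unirradiated cells ran between near zero and 188 CPM. PPIB, a cyclophilin of the endoplasmic reticulum, had 149, 175 and 188 CPM, PRSS35, a serine protease-like protein, 19.9, 24.4 and 25.3 CPM, and BTG2 stood at the values given above. TRIM29, a TRIM family protein, had 1.26, 1.05 and 1.27 CPM, at the edge of the threshold, and HCRTR2 was near zero.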

How the data were processed

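The deposited table of raw read counts was made by the authors, per the labels by TopHat alignment to hg19 and HTSeq counting. Versions and strand setting are not stated. A second deposited table, which leaves out control replicate 3, gives a signal per library, which the authors normalized to CPM by TMM and which served here only as an alternative. Its columns of the authors' own comparisons (a log2 fold change, a p-value and a score for the direction called) were not used.

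From the counts, CPM were computed in R 4.3.3 with edgeR 4.0.16 from TMM-adjusted library sizes over the 3 controls. Tables and plots were made in Python 3.11.15 with pandas 2.3.3, numpy 2.4.6 and matplotlib 3.10.9. The effective sizes of 9552192, 10487224 and 11040329 make 3 counts equal to 0.314, 0.286 and 0.272 CPM. TPM used the length of the canonical (otherwise the longest) transcript of GENCODE lifted to GRCh37, which 98.9% of genes had. The biological coefficient of variation came from estimateDisp on 11902 genes kept by filterByExpr, a step tested on simulated counts. With 1 group no test was run and no p-value is given. Gene coordinates were taken from the same table.

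The members and the gene lists were chosen with earlier results of these data known. The genes named are the core genes of each list, its 4 highest and up to 4 lowest members, the 5 viewpoint genes of the study, the 10 highest genes, those of the 9p21 region and the 5 with the largest CV among genes of at least 10 CPM. Others were chosen after their values were seen, or to complete a count. Of 197 named genes that were not expressed, 35 overlap another row of the table, so that their reads could have been left out as ambiguous. Alternatives were other scalings and thresholds and each library left out. Some genes of the lists, counted there, are not reported here by name.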

Additional observations from a re-analysis of the deposited data

How the results depend on the processing

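No paired analysis was possible because the results come from 1 group and from no test. The count of expressed genes was 11817 with library totals, 11817 with RLE size factors, 11844 with TMM over all 15 libraries, 12530 at 0.5 CPM, 10236 at 5 CPM, 12145 for a mean of 1 CPM and 11706 at 1 TPM, and it stayed between 11906 and 11953 when a library was left out. Of the genes in lists, 524 to 673 were expressed under these settings, against 627. The count of members moved by over 1.5 times in 12 of 45 lists at 5 CPM, with 0 chemokine receptors, 0 myeloid and 0 endothelial markers left, in 3 lists at 0.5 CPM, in 3 at 1 TPM, in 1 for a mean of 1 CPM and in 1 without replicate 2, where POU5F1 became the 1 expressed pluripotency marker, against 0. The count of genes at or under 3 counts lay between 8536 and 8636 with a library left out, against 8365, and 9988 genes had at most 10 counts in each library. The median number of CpG before expressed genes was 20 at the threshold of 5 CPM and 21 in RefSeq promoter windows, against 19, but the RefSeq windows matched 71.2% of all genes and 56.6% of near-zero genes, so that check is void. The GRCh37 windows used in their place were added after seeing the data. The biological coefficient of variation was 5.87% without a filter on low counts and 5.93% with library totals, against 5.84%, and lay between 4.31% and 7.17% with a library left out, the highest without replicate 2 and the lowest without replicate 3. No named gene changed to or from expressed under another scaling, and 1 was gained with each library left out. At 1 TPM 11 of the 496 named genes were no longer expressed and 3 were gained, and at 5 CPM 32 were lost. The mean level of 49 of 295 named genes differed by more than 1 SD in the authors' signal for replicates 1 and 2. Without replicate 3 the mean of PDGFRA was 0.734 times the mean over the 3 libraries. Below about 3 counts a library cannot tell a low level from none.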

Other observations

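Among genes averaging at least 10 CPM, the 5 with the largest CV between the 3 libraries were FKBP2, a folding enzyme of the endoplasmic reticulum (37.6, 20.8 and 19.7 CPM in replicates 1, 2 and 3), HSCB, a cochaperone of iron-sulfur cluster assembly (6.80, 11.9 and 13.7 CPM), RPS10, a ribosomal protein (12.2, 24.6 and 20.9 CPM), KIAA0754 (17.4, 15.8 and 8.97 CPM) and ASTE1 (13.5, 7.34 and 12.6 CPM). In FKBP2, HSCB and RPS10 replicate 1 stood apart from the others, in KIAA0754 replicate 3 and in ASTE1 replicate 2, so no single library was apart in all of them. RPS10 overlaps RPS10-NUDT3 and KIAA0754 overlaps MACF1, each on the same strand, and ASTE1 overlaps ATP2C1 and NEK11 on the other strand. Reads of RPS10, KIAA0754 and ASTE1 could therefore have been left out as ambiguous, and their levels are uncertain.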
